A study of Mus musculus with 16 samples.

Results

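The mitochondrial genome of the mouse carries 37 genes, and all 37 were listed among the 56980 genes of the deposited count table. They were taken as the symbols that begin with mt-. Of these, 13 encode proteins, 2 encode ribosomal RNAs and 22 encode transfer RNAs. The cells were primary microglia that were shaken off mixed glial cultures from cortex and hippocampus of mice at postnatal days 1 to 3, with no sort or gate named in the labels. They were wild type (WT) or knockout (KO) for Grn, the gene of progranulin, a secreted glycoprotein that is delivered to lysosomes. Cells of each genotype received 2 uM rimeporide, an inhibitor of sodium-proton exchange, or the vehicle DMSO for 72 h. The labels name 4 libraries for each of the groups WT DMSO, KO DMSO, WT rimeporide and KO rimeporide, 16 in all. The labels describe them as biological replicates of each genotype and do not tie a DMSO library to a rimeporide library, and p-values here measure the spread between libraries. The sources used here do not give the deleted part of Grn, the strain or the number of animals behind a culture.

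Mitochondrial DNA is transcribed from both strands into long precursors that run through many genes, and the transfer RNAs that lie between the other genes are cut out to release the ribosomal and messenger RNAs. The level of each messenger RNA is set by transcription of the shared precursor and by processing, polyadenylation and decay. The protein products are core subunits of the respiratory chain: the mt-Nd genes belong to complex I, which oxidises NADH, mt-Cytb to complex III, the mt-Co genes to complex IV, cytochrome c oxidase, and the mt-Atp genes to complex V, the ATP synthase. All other proteins of the mitochondrion, including those that copy, transcribe and translate this genome, are imported products of nuclear genes.

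The libraries were 3′ mRNA tag libraries read as single ends of 75 bases, so the sequence that a gene shares with other loci limits what can be counted for it. By sequence comparison in GENCODE M21 (GRCm38), 7 of the 13 protein-coding members had a nearly identical nuclear pseudogene on chromosome 1, with at most 1 differing base among those aligned. For mt-Atp6, mt-Co2, mt-Co3, mt-Nd4 and mt-Nd4l no aligned base differed. For mt-Co1 and mt-Nd3 a single base differed, and a window of 1 read length that starts at or just before that base is shown for each gene and its copy, with the differing base in capitals. Positions count from 1 at the 5′ end of the mitochondrial transcript, and the substitution was A1066T in the mt-Co1 pair and T3C in the mt-Nd3 pair.
mt-Co1: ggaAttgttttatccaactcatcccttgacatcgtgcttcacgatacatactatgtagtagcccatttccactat
Gm29216: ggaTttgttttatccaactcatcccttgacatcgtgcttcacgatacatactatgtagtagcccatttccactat
mt-Nd3: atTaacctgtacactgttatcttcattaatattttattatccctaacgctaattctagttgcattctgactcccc
Gm28438: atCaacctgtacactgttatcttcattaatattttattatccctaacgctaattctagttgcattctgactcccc
These bases lay 479 and 345 bases before the 3′ end of mt-Co1 and mt-Nd3. A read that covered only the last 75 bases of either gene would not hold the differing base. Where the reads lay along each gene was not examined.

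The neighbouring genes mt-Nd4l and mt-Nd4 share bases on 1 messenger RNA, as do mt-Atp8 and mt-Atp6. The end of mt-Nd4l and the start of mt-Nd4 have 7 bases in common, shown in capitals because both genes passed the test in the same comparisons.
mt-Nd4l: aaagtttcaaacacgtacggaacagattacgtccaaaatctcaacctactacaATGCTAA
mt-Nd4: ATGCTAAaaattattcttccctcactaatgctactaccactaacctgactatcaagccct
The overlap of mt-Atp8 and mt-Atp6 is longer, at 43 bases. Counts of genes that share a messenger RNA are therefore not independent of each other. Of the members that are not protein-coding, mt-Tv, the transfer RNA for valine between the ribosomal RNA genes, is shown whole, and mt-Rnr2, the RNA of the large mitochondrial ribosomal subunit, around its longest run of A (capitals, 7 bases), since these were the members of those classes that passed a test.
mt-Tv: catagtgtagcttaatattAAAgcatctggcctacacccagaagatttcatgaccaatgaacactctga
mt-Rnr2: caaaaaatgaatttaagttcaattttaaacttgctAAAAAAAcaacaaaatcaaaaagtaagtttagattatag

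Total counts ran from 3666413 to 7929499 per library. Grn stood between 1566 and 1863 CPM (counts per 1000000 counts of the library) in the WT libraries and between 10.9 and 24.2 CPM in the KO libraries, so the genotypes did not overlap. The microglial markers summed to 2396 to 2795 CPM in WT DMSO and 2252 to 2485 CPM in KO DMSO. With rimeporide they summed to 2441 to 2702 CPM in WT and 2148 to 2514 CPM in KO. The genotypes overlapped in both, with means of 2577 and 2365 CPM in DMSO and 2567 and 2336 CPM in rimeporide. Of 11 tested ones, 2 were called lower in KO in DMSO and 4 in rimeporide, and 0 higher. The neuron markers summed to 8.87 to 16.1 CPM in WT and to 52.8 to 89.4 CPM in KO. The astrocyte markers summed to 16.9 to 35.5 CPM in WT and to 77.8 to 118 CPM in KO, and no marker on any list was at 0 in all libraries. Of 6 tested neuron markers, 6 were called higher in KO in DMSO and 4 in rimeporide, and 0 lower. Of 11 tested astrocyte markers, 8 were called higher in DMSO and 7 in rimeporide, and 0 lower. Markers of both lists were low in WT. A marker that passed the filter on low counts only through the KO libraries could hardly be called lower. How many passed in that way was not examined, so these counts do not add to the sums. In DMSO the oligodendrocyte lineage markers summed to 72.3 to 127 CPM in WT and 101 to 119 CPM in KO. With rimeporide they summed to 65.1 to 79.2 CPM in WT and 89.0 to 119 CPM in KO, without overlap. Of 9 tested ones, 5 were called higher and 1 lower in KO in DMSO, and 6 were called higher in rimeporide. The fibroblast, endothelial and mural markers summed to 38.6 to 46.8 CPM in WT DMSO and 52.4 to 71.9 CPM in KO DMSO without overlap. With rimeporide they summed to 33.8 to 67.4 CPM in WT and 43.3 to 64.5 CPM in KO. Of 6 tested ones, 2 were called higher in KO in DMSO, and 1 higher and 1 lower in rimeporide. Over all genes, 10.1% were called higher and 8.56% lower in KO in DMSO, and 5.14% and 2.32% in rimeporide. KO DMSO replicates 1, 3 and 4 stood apart from the other 13 libraries. They were the deepest, with at least 6659395 counts each, and their summed share of ribosomal protein pseudogenes was 0.421% to 0.498%, against 0.632% to 0.864% in the others, KO DMSO replicate 2 included. The part of depth, of this share and of the other cell types in the results was not tested. For the mitochondrial members, the values without each library in turn are given where a call ended. Calls of single nuclear genes were not followed through these fits, so whether they held is not known.

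Mitochondrially encoded genes took 2.15% to 2.83% of all counts. The share was 2.43% ± 0.129 (SD, n = 4) in WT DMSO, 2.38% ± 0.235 in KO DMSO, 2.69% ± 0.160 in WT rimeporide and 2.39% ± 0.181 in KO rimeporide. The groups overlapped in all 4 comparisons. In bulk RNA, a change in the share of cells of a type and a change in RNA per cell cannot be told apart.

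Between genotypes in DMSO, the make-up of the mitochondrial counts differed more than their sum. The ribosomal RNAs mt-Rnr1 and mt-Rnr2 took 61.2%, 59.5%, 60.2% and 62.4% of the mitochondrial counts in the WT DMSO libraries. In KO DMSO they took 46.6%, 59.3%, 53.7% and 57.5%, so every KO DMSO library lay below every WT DMSO library, KO DMSO replicate 1 by far the most. The corresponding means were 59.8% ± 3.25 in WT rimeporide and 57.5% ± 1.91 in KO rimeporide, and these groups overlapped. The 13 protein-coding genes took 0.947% ± 0.0663 of all counts in WT DMSO and 1.08% ± 0.152 in KO DMSO, with overlap. They took 1.07% ± 0.0396 in WT rimeporide, where the lowest library, at 1.03%, lay above the highest WT DMSO library, at 0.992%. In KO rimeporide they took 1.01% ± 0.0306.

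**Figure D1:**
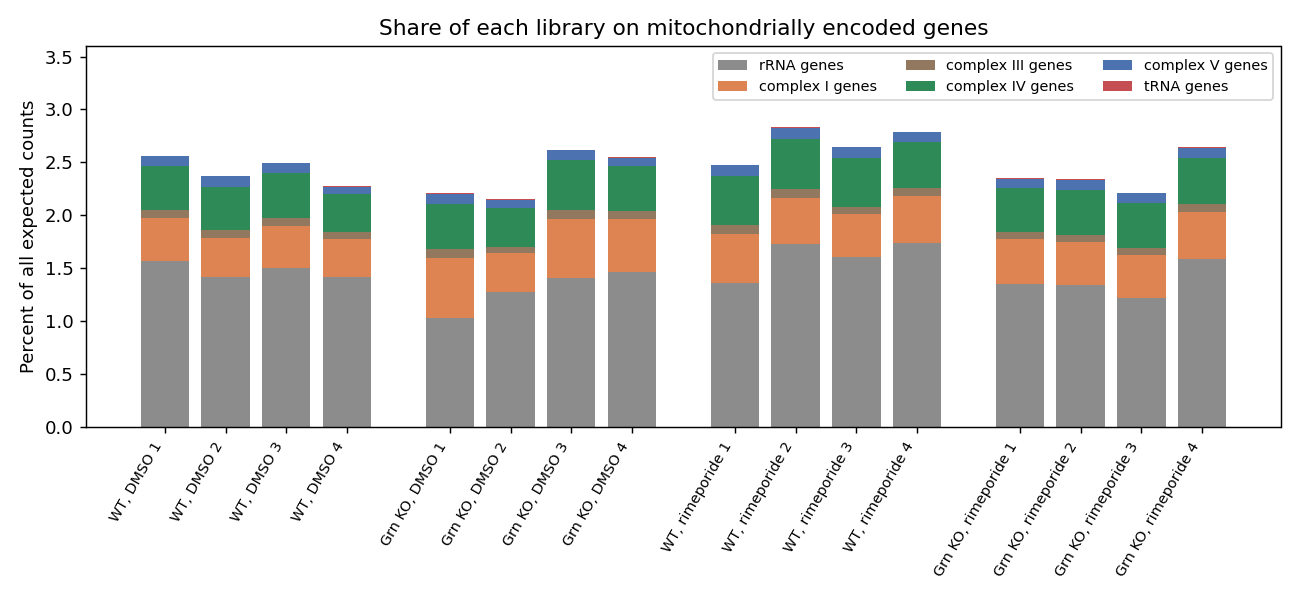
Stacked bars give the percent of all expected counts that fell on mitochondrially encoded genes in each of the 16 libraries, split by ribosomal RNA, respiratory complex and transfer RNA. The ribosomal RNA part is smallest in KO DMSO replicate 1, at 1.03% of all counts, while the complex I part is largest there, at 0.569%.

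Complex I genes took 40.8% ± 1.42 of the protein-coding mitochondrial counts in WT DMSO. In KO DMSO the 4 libraries stood at 48.3%, 42.3%, 45.8% and 46.3%, with replicate 2 inside the WT DMSO range of 39.1% to 42.5%. Complex IV genes took 42.3% ± 0.869 of the same counts in WT DMSO and 38.8% ± 2.43 in KO DMSO. Parts of a fixed sum move against each other, and of all counts complex IV genes took 0.401% ± 0.0327 in WT DMSO and 0.418% ± 0.0412 in KO DMSO. With rimeporide the complex I part was 40.7% ± 1.75 in WT and 41.7% ± 1.29 in KO. These are shares of counts of 3′ tags and do not rank the genes by molecules.

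All 13 protein-coding genes, both ribosomal RNA genes and 5 of the 22 transfer RNA genes passed the filter on low counts, 20 members in all. mt-Rnr2 had the most counts of any member, 31.1% to 45.6% of the mitochondrial counts of a library, and mt-Rnr1, the RNA of the small ribosomal subunit, had 13.9% to 19.1%. mt-Nd6, the only protein-coding gene transcribed from the other strand, stood at 1.68 to 7.21 CPM. The sources used here do not say whether the counting used strand, and without it reads of mt-Nd6 and of RNA from the opposite strand cannot be told apart. Among the transfer RNAs, mt-Tg, for glycine, had 1691 counts over all libraries, and mt-Tv, mt-Tm, mt-Tw and mt-Tn, for valine, methionine, tryptophan and asparagine, had 159 to 455. The other 17 had at most 73.0 counts each over 16 libraries. mt-Tf, for phenylalanine, had 0 counts in every library, which allows up to 0.378 to 0.818 CPM depending on depth, from counting error alone.

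**Figure D2:**
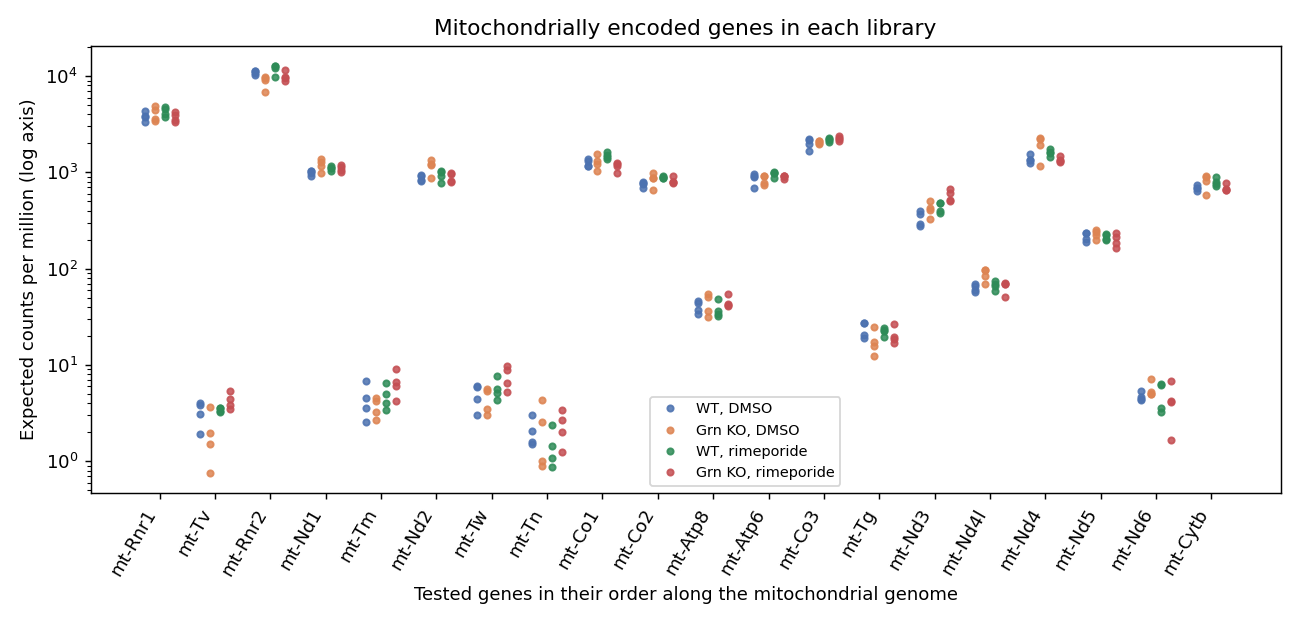
Each point is 1 library, coloured by group, and gives the CPM (log axis) of a tested gene, with the genes in their order along the mitochondrial genome. mt-Rnr2 lies at 6875 to 12673 CPM, mt-Nd6 at 1.68 to 7.21 CPM, and in mt-Nd4 3 of the 4 KO DMSO points lie above all others.

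In DMSO, 4 genes for complex I subunits were higher in Grn KO than in WT microglia, and the large ribosomal RNA was lower. mt-Nd1, mt-Nd2, mt-Nd4 and mt-Nd4l, all subunits of the membrane arm of complex I, rose by 0.27 to 0.45 on the log2 scale, and mt-Rnr2 changed by −0.30. Thus 4 of the 20 tested members were called higher and 1 lower, where 10.1% and 8.56% of all 12272 tested genes were called in those directions. Calls rest on edgeR's quasi-likelihood test with a Benjamini-Hochberg adjusted p under 0.05 over all tested genes, and each change is given ± its standard error. Of the 7 complex I genes, all had a log2 fold change above 0, with a median of 0.30, against a median of 0.0088 over all genes.

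mt-Nd4, which encodes the subunit at the far pumping module of complex I, had 1558, 1250.4, 1339.7 and 1345 CPM in the WT DMSO libraries and 2211, 1153, 2263 and 1933 CPM in the KO DMSO libraries. The means were 1373 ± 131 and 1890.1 ± 513 CPM, and the change was 0.45 ± 0.13 (edgeR adjusted p = 0.0175). KO DMSO replicates 1, 3 and 4 lay above all WT DMSO libraries and replicate 2 below them all, so the groups overlapped. The call ended without KO DMSO replicate 1 (adjusted p = 0.0794), without KO DMSO replicate 3 (0.0779) and without WT DMSO replicate 2 (0.0676).

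mt-Nd4l, which lies just before mt-Nd4 on the same messenger RNA, had 59.8, 57.7, 66.3 and 68.9 CPM in WT DMSO and 96.4, 69.2, 84.3 and 95.8 CPM in KO DMSO. It was the only complex I gene whose groups did not overlap, although KO DMSO replicate 2 was higher than the highest WT library by a small margin. The change was 0.45 ± 0.12 (edgeR adjusted p = 0.0117), and its adjusted p was 0.0523 without KO DMSO replicate 1. Over all genes, 9.75% were higher without overlap in this comparison.

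mt-Nd2, a membrane subunit encoded in the first part of the genome, had 937, 829, 917 and 824 CPM in WT DMSO and 1334, 868, 1189 and 1213 CPM in KO DMSO. The same 3 KO libraries were high and replicate 2 lay within the WT range, with a change of 0.39 ± 0.11 (edgeR adjusted p = 0.0148). The call ended without KO DMSO replicate 1 (adjusted p = 0.0740) and without WT DMSO replicate 2 (0.0547). mt-Nd1, the subunit next to the ubiquinone site, had 987, 1038, 1034 and 909 CPM in WT DMSO and 1371, 988, 1272 and 1178 CPM in KO DMSO. Again KO DMSO replicate 2 lay within the WT range. The change was 0.27 ± 0.09 (edgeR adjusted p = 0.0309). Leaving out any of WT DMSO replicates 1 and 4 and KO DMSO replicates 1, 3 and 4 ended the mt-Nd1 call, with adjusted p between 0.0575 and 0.141.

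mt-Rnr2 had 11305, 10841, 11227 and 10299.8 CPM in WT DMSO and 6875, 9201, 9666 and 9765 CPM in KO DMSO. Every KO library lay below every WT library, where 6.79% of all genes were lower without overlap. The change was −0.30 ± 0.10 (edgeR adjusted p = 0.0443). Its call ended without any of WT DMSO replicates 1, 2 and 3, KO DMSO replicate 1 or KO rimeporide replicate 2, with adjusted p from 0.0542 to 0.184. mt-Rnr1, cut from the same precursor, had 3845 ± 439 CPM in WT DMSO and 4062 ± 696 CPM in KO DMSO, a difference of 0.07 ± 0.11 (edgeR adjusted p = 0.698). The ratio of mt-Rnr2 to mt-Rnr1 counts was 2.58 to 3.28 in the WT DMSO libraries and 2.00 to 2.58 in the KO DMSO libraries.

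The other 15 tested members did not pass in DMSO. The complex I genes mt-Nd3 (0.30 ± 0.13, edgeR adjusted p = 0.105), mt-Nd5 (0.08 ± 0.10, 0.641) and mt-Nd6 (0.26 ± 0.31, 0.629) were among them. mt-Nd3 was called with no filter on low counts (0.33, adjusted p = 0.00744), without WT DMSO replicate 3 (0.41, 0.0446) and without KO DMSO replicate 4 (0.40, 0.0455). Among those not called were also mt-Cytb, the complex III subunit (0.21 ± 0.10, 0.169), and the catalytic complex IV subunit mt-Co1 (0.03 ± 0.10, 0.873). Of the transfer RNAs, mt-Tg stood at −0.46 ± 0.19 (adjusted p = 0.0943) and mt-Tv at −0.78 ± 0.38 (adjusted p = 0.154). Without KO DMSO replicate 1 none of the 20 members was called in DMSO, and without KO DMSO replicate 2 the count was 6 higher and 3 lower, with mt-Co2 (0.24, adjusted p = 0.0175) and mt-Cytb (0.32, 0.00526) added among the higher and mt-Tg (−0.67, 0.00563) and mt-Tv (−1.21, 0.0178) among the lower genes. Calls over all genes moved as well, from 2287 to 1427 without replicate 1 and to 3345 without replicate 2.

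**Figure D3:**
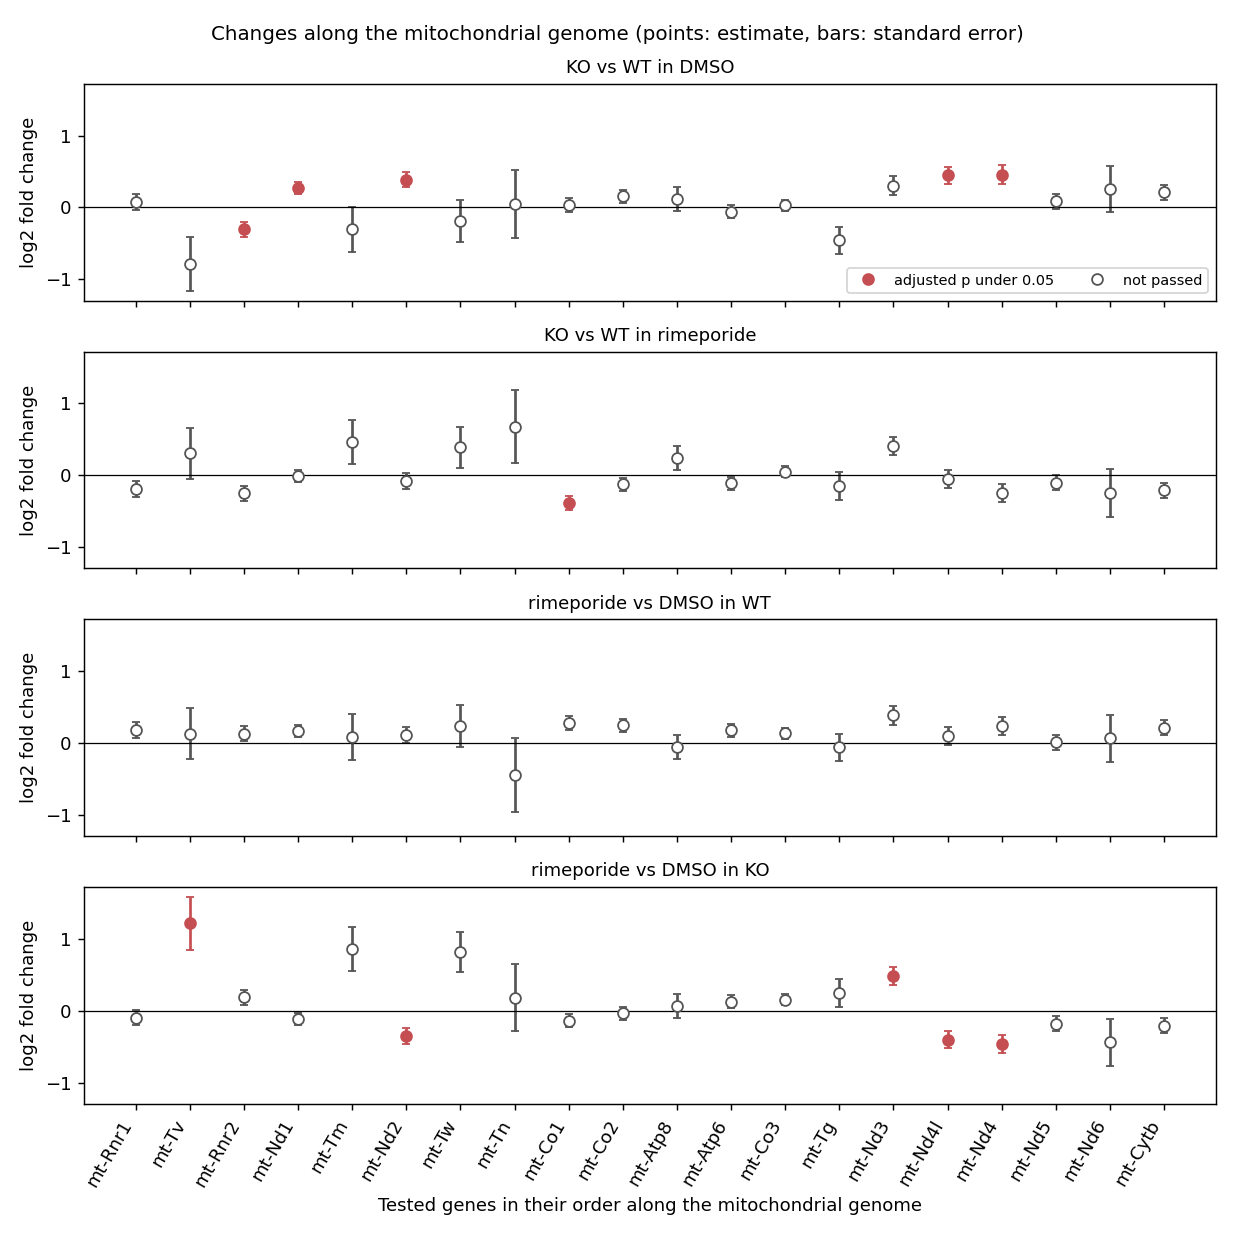
Points give the log2 fold change of each tested member ± its standard error in 4 comparisons, with genes in their order along the mitochondrial genome and filled points for an adjusted p under 0.05. In KO against WT in DMSO all 7 mt-Nd genes lie above 0, and in rimeporide against DMSO in KO mt-Nd2, mt-Nd4 and mt-Nd4l lie below 0 while mt-Nd3 lies at 0.49.

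Between genotypes in rimeporide, mt-Co1 was the 1 member called. It encodes the subunit of cytochrome c oxidase that holds the oxygen-reducing centre. None of the 20 members was called higher and 1 was called lower, where 5.14% and 2.32% of all genes were called. mt-Co1 had 1459, 1638, 1517 and 1391 CPM in WT rimeporide and 989.8, 1166, 1224 and 1250.0 CPM in KO rimeporide, and no KO library reached the WT range. The change was −0.38 ± 0.10 (edgeR adjusted p = 0.0137), and its adjusted p was 0.0521 without KO rimeporide replicate 1, the lowest library.

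mt-Nd3, a small complex I subunit near the junction of its arms, had 396, 476, 483 and 377 CPM in WT rimeporide and 512, 614, 675 and 508 CPM in KO rimeporide. These groups did not overlap either, but the difference of 0.41 ± 0.13 missed the threshold (edgeR adjusted p = 0.0554). With no filter on low counts it was called (0.39, adjusted p = 0.00187). Without WT DMSO replicate 3 or 4, or KO DMSO replicate 3 or 4, libraries of other groups in the same fit, its adjusted p was 0.0376 to 0.0476. Without overlap, 7.5% of all genes were higher and 5.02% lower in this comparison. The genes called in DMSO had values nearer 0 or of the other sign here: mt-Nd1 −0.01 ± 0.09 (adjusted p = 0.961), mt-Nd2 −0.08 ± 0.11 (0.782), mt-Nd4l −0.05 ± 0.12 (0.894) and mt-Nd4 −0.25 ± 0.13 (0.338). mt-Rnr2 stood at −0.25 ± 0.10 (adjusted p = 0.186), with 11809.8 ± 1313 CPM in WT rimeporide and 9993 ± 1175 CPM in KO rimeporide.

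In WT cells, rimeporide against DMSO gave no call among the 20 members and none among all 12272 genes (0%) in edgeR's test. DESeq2 called 6 genes and none of the members. At an unadjusted p under 0.05, 676 genes (5.51%) and 3 members stood, and the members were mt-Co1, mt-Co2 and mt-Nd3. With no filter on low counts, 95 genes were called, mt-Nd3 among them (0.39, adjusted p = 0.0120). Of the 20 members, 17 had a log2 fold change above 0, and their median was 0.13 against 0.0065 over all genes. mt-Co1 had 1365, 1158, 1308 and 1179.7 CPM in WT DMSO against the WT rimeporide values given above, a difference of 0.28 ± 0.10 (edgeR adjusted p = 0.687). mt-Co2, which carries the cytochrome c binding site of complex IV, had 802, 751, 785 and 689 CPM in WT DMSO and 912, 902, 874 and 865 CPM in WT rimeporide, a difference of 0.25 ± 0.09 (adjusted p = 0.732). mt-Co1, mt-Co2 and mt-Nd1 were higher in every rimeporide library than in every DMSO library, where 1.3% of all genes were. For mt-Nd1 the groups nearly touched, at 1038.3 CPM in the highest DMSO library and 1038.7 CPM in the lowest rimeporide library. Its difference was 0.17 ± 0.09 (edgeR adjusted p = 0.915).

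In KO cells, rimeporide against DMSO moved complex I genes in both directions. mt-Nd3 rose by 0.49 and the transfer RNA mt-Tv by 1.22 on the log2 scale, while mt-Nd2, mt-Nd4 and mt-Nd4l fell by 0.35, 0.46 and 0.40. Thus 2 of the 20 members were called higher and 3 lower, where 8.43% and 6.35% of all genes were called. Both this comparison and the one between genotypes in DMSO use the KO DMSO libraries, so the 3 genes that were called higher in KO DMSO and lower in KO rimeporide are not seen in independent samples.

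For mt-Nd4 the KO DMSO libraries had the 2211, 1153, 2263 and 1933 CPM given above, and the KO rimeporide libraries had 1333, 1277, 1323 and 1493 CPM. The KO rimeporide libraries were close together, with a mean of 1356 ± 94.2 CPM, and KO DMSO replicate 2 lay below all of them. The change was −0.46 ± 0.13 (edgeR adjusted p = 0.0206). mt-Nd4l had 71.4, 68.7, 51.0 and 69.9 CPM in KO rimeporide, against 69.2 to 96.4 CPM in KO DMSO, and changed by −0.40 ± 0.12 (adjusted p = 0.0290). mt-Nd2 had 989.9, 817, 795 and 968 CPM in KO rimeporide and changed by −0.35 ± 0.11 (adjusted p = 0.0325). All 3 genes kept an overlap between groups through KO DMSO replicate 2.

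mt-Nd3 had 422, 406, 505 and 332 CPM in KO DMSO and 512, 614, 675 and 508 CPM in KO rimeporide. Every rimeporide library lay above every DMSO library, where 6.07% of all genes were higher without overlap, and the change was 0.49 ± 0.13 (edgeR adjusted p = 0.0138). It took 3.88% ± 0.692 of the protein-coding mitochondrial counts in KO DMSO and 5.75% ± 0.926 in KO rimeporide. The ratio of mt-Nd4 to mt-Nd3 counts was 4.59 ± 1.29 in KO DMSO and 2.40 ± 0.457 in KO rimeporide, with overlap through KO DMSO replicate 2. In WT the ratios were 4.22 ± 0.993 with DMSO and 3.76 ± 0.691 with rimeporide.

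**Figure D4:**
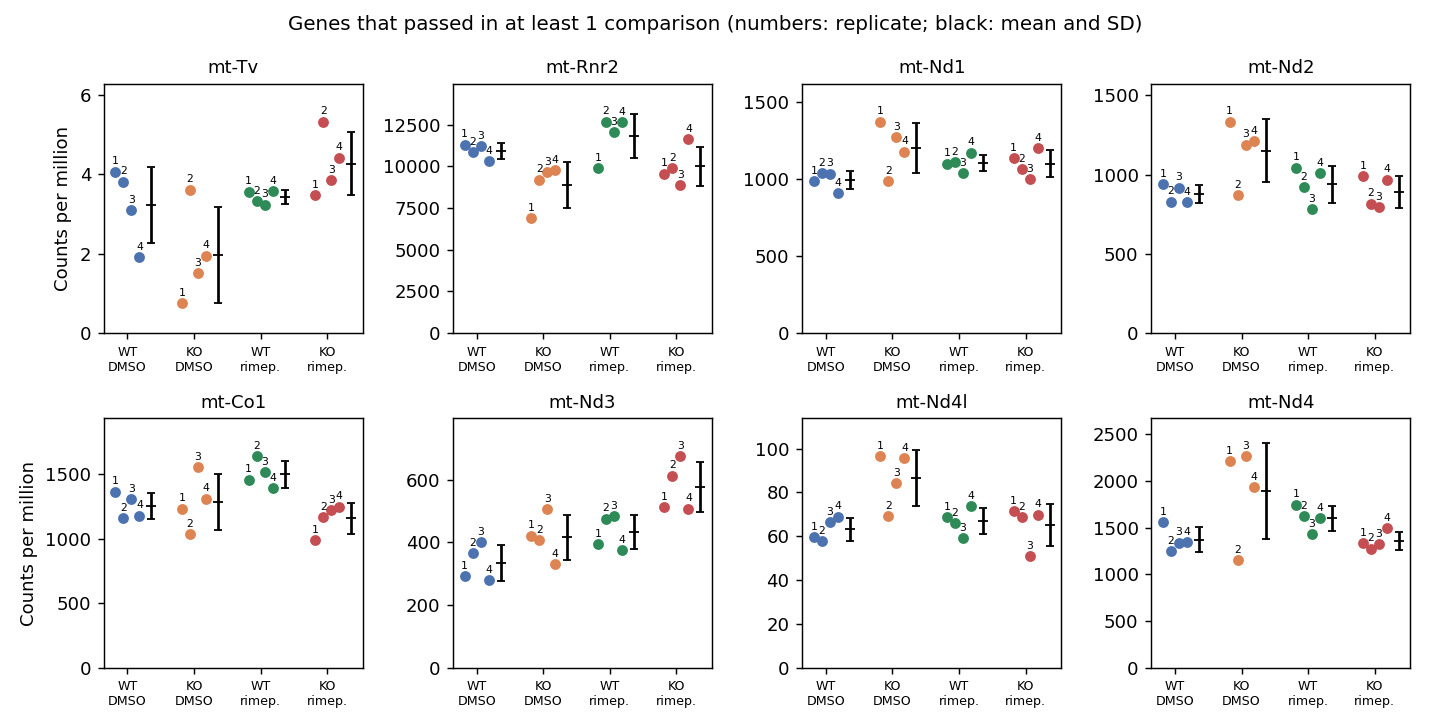
Panels show the CPM of the 8 members called in at least 1 comparison, with 1 point per library, the replicate number beside it, and the mean ± SD in black. In mt-Nd4, KO DMSO replicate 2 (1153 CPM) sits apart from replicates 1, 3 and 4 (1933 to 2263 CPM), and in mt-Nd3 all KO rimeporide points lie at or above 508 CPM.

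mt-Tv had 0.757, 3.62, 1.5 and 1.95 CPM in KO DMSO and 3.48, 5.33, 3.85 and 4.42 CPM in KO rimeporide. KO DMSO replicate 2 reached into the rimeporide range and the other 3 did not. The change was 1.22 ± 0.37 (edgeR adjusted p = 0.0280), from 251 counts over all 16 libraries, so counting error is large for this gene. The gene has 69 bases, fewer than a read of 75, and mature transfer RNA and longer precursor RNA were not told apart. The other tested transfer RNAs had log2 fold changes above 0 and did not pass, with mt-Tw at 0.82 ± 0.28 (adjusted p = 0.0524), mt-Tm at 0.86 ± 0.31 (0.0634), mt-Tg at 0.25 ± 0.19 (0.417) and mt-Tn at 0.19 ± 0.47 (0.834). mt-Co3, the third complex IV subunit, was higher without overlap in KO rimeporide (2256 ± 109 CPM) than in KO DMSO (2052 ± 75.2 CPM), at 0.15 ± 0.08 (adjusted p = 0.188).

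No call in KO cells with rimeporide held when each library was left out in turn. Without KO DMSO replicate 4 or KO rimeporide replicate 3 none of the 20 members was called, and without KO DMSO replicate 1 only mt-Nd3 was. Leaving out KO DMSO replicate 3 ended the calls of mt-Nd2, mt-Nd4 and mt-Tv, as did leaving out KO rimeporide replicate 2, and mt-Tv also lost its call without KO rimeporide replicate 4. The adjusted p reached 0.137 for mt-Nd2, 0.0714 for mt-Nd3, 0.0923 for mt-Nd4, 0.123 for mt-Nd4l and 0.119 for mt-Tv. Without KO DMSO replicate 2 the count was 4 higher and 4 lower. Calls over all genes moved as well, from 1813 to 643 without KO DMSO replicate 4 and to 754 without KO rimeporide replicate 3. They went to 751 without KO DMSO replicate 1 and to 3002 without KO DMSO replicate 2. The sign of each called member was the same in all of these fits.

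Whether the effect of rimeporide differed between genotypes was tested as an interaction. None of the 20 members passed, and 2 of 12272 genes did (0.0163%). At an unadjusted p under 0.05 stood 8 members and 2277 genes, 18.6% of all genes. The largest difference among protein-coding members was that of mt-Nd4, at −0.70 ± 0.18 (edgeR adjusted p = 0.0952), since its mean was 1373 CPM without and 1601 CPM with rimeporide in WT, and 1890.1 and 1356 CPM in KO. DESeq2 called it (adjusted p = 0.0336). mt-Nd6 stood at −0.50 ± 0.46 (edgeR adjusted p = 0.603), mt-Nd4l at −0.50 ± 0.17 (0.136), mt-Nd2 at −0.46 ± 0.15 (0.125), mt-Cytb at −0.42 ± 0.15 (0.144) and mt-Co1 at −0.41 ± 0.14 (0.128). mt-Nd3 stood at 0.10 ± 0.18 (adjusted p = 0.816). Without KO DMSO replicate 2 the interaction called 7 members lower and 1 higher, mt-Nd4 at −0.87 (adjusted p = 7.41e-05) among them, and calls over all genes went from 2 to 1497.

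The 7 nuclear copies on chromosome 1 received many of the counts of their pairs. Gm28437 held 42.1% to 44.4% of the counts it shared with mt-Co3, Gm10222 held 43.9% to 47.8% beside mt-Nd4l, Gm28661 held 42.6% to 46.9% beside mt-Co2, and Gm28438 held 36.7% to 42.9% beside mt-Nd3. Gm10925 held 34.9% to 40.9% beside mt-Atp6 and Gm29216 held 32.1% to 39.1% beside mt-Co1. Gm28439, which matches mt-Nd4 over 876 bases but not over its last 502, held 3.43% to 8.99%. The sources used here do not say how the authors' counting split reads between a gene and its copy, so the level of these 7 members is uncertain by the copy's part.

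**Figure D5:**
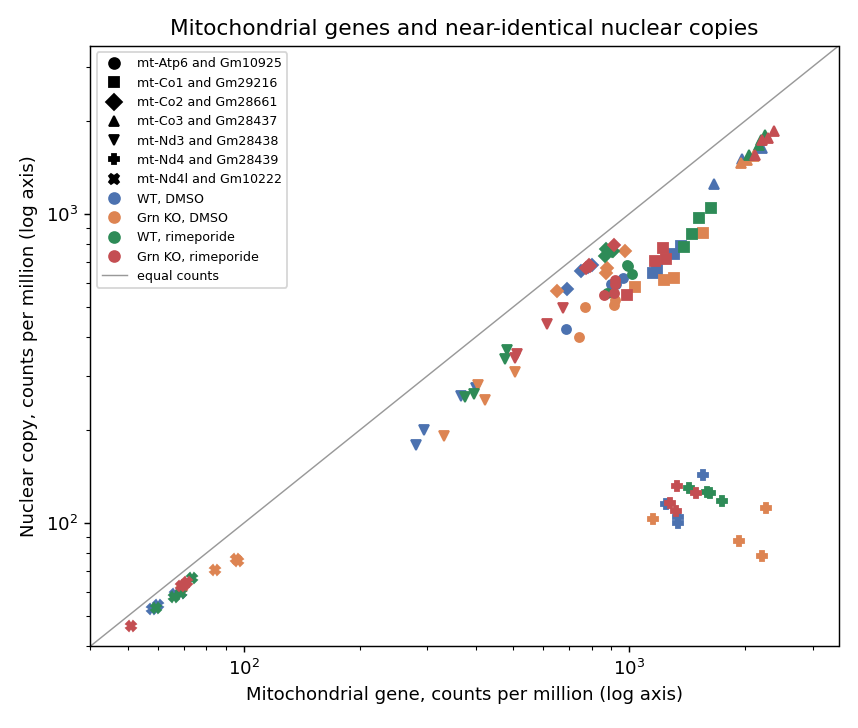
Each point sets the CPM of a nuclear copy (vertical, log axis) against those of its mitochondrial gene (horizontal, log axis) in 1 library, with a symbol per pair, a colour per group and a grey line of equal counts. All points lie below the line, and those of mt-Nd4 and Gm28439 lie farthest below it, where the copy holds 3.43% to 8.99% of the pair.

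With the copies added to their genes, a setting chosen after seeing the data, the counts of called members were the same in all 5 comparisons. In KO against WT in DMSO, mt-Nd4 then stood at 0.41 (edgeR adjusted p = 0.0238) and mt-Nd4l at 0.39 (0.0144). For rimeporide in KO, mt-Nd3 stood at 0.57 (adjusted p = 0.00922), mt-Nd4 at −0.41 (0.0293) and mt-Nd4l at −0.33 (0.0456). Counted apart, Gm28438 rose with rimeporide in KO as mt-Nd3 did (0.68 ± 0.15, adjusted p = 0.00668). Gm28439 rose too (0.36 ± 0.11, adjusted p = 0.0366), opposite to mt-Nd4. Gm10222 was higher in KO than in WT in DMSO (0.33 ± 0.11, adjusted p = 0.0418), and Gm29216 was lower in KO in rimeporide (−0.43 ± 0.12, adjusted p = 0.0268), the directions of mt-Nd4l and mt-Co1. In these comparisons the copies' calls draw on reads that may belong to the same transcripts and do not add to the evidence for the members.

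Nuclear genes that serve the mitochondrial genome showed scattered changes. In KO against WT in DMSO, 1 of 19 tested genes of mitochondrial DNA transcription and replication was higher and 3 were lower, with a list median of 0.0073. The counts of this and the following lists in DMSO stand beside the 10.1% and 8.56% of all genes called higher and lower. Ssbp1, which coats single-stranded mitochondrial DNA, rose (0.58 ± 0.12, edgeR adjusted p = 0.00157), and Polg, the catalytic subunit of the mitochondrial DNA polymerase, fell (−0.67 ± 0.16, 0.00429), as did Dguok, a kinase that supplies deoxynucleotides to mitochondria (−0.63 ± 0.15, 0.00548). Of 39 genes of mitochondrial RNA processing and turnover, 2 were higher and 1 lower, with a median of 0.029. Lrpprc, which binds and stabilises mitochondrial messenger RNAs, rose by 0.95 ± 0.18 (adjusted p = 0.000566).

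Lrpprc had 157, 167, 162 and 205 CPM in WT DMSO and 456, 172, 359 and 352 CPM in KO DMSO. Lars2, the mitochondrial leucyl-tRNA synthetase and the 1 called gene of 28 translation factors and synthetases, had 74.3, 58.0, 57.0 and 47.0 CPM in WT DMSO and 8.70, 47.3, 12.9 and 15.5 CPM in KO DMSO. It changed by −1.56 ± 0.31 (edgeR adjusted p = 0.00105). In both genes KO DMSO replicate 2 lay within the WT range and replicates 1, 3 and 4 lay outside it, the division seen in mt-Nd2. Pnpt1, a mitochondrial exoribonuclease, fell (−0.63 ± 0.18, adjusted p = 0.0201), and Mto1, which modifies mitochondrial transfer RNAs, rose (0.76 ± 0.24, 0.0264).

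Nuclear genes of the respiratory chain were called in both directions. Of 82 respiratory chain subunit genes, 6 were higher and 5 lower in KO DMSO, with a median of 0.015 against 0.0088 over all genes. Ndufb3 of complex I (0.73 ± 0.16, edgeR adjusted p = 0.00189), Uqcrfs1, the Rieske protein of complex III (0.58 ± 0.13, 0.00232), and Atp5g3 of complex V (0.46 ± 0.10, 0.00272) rose. In Ndufb3 and Uqcrfs1, KO DMSO replicate 2, at 149.9 and 128 CPM, lay within the WT DMSO range. In Atp5g3 that library stood at 1240 CPM, just above the highest WT DMSO library, at 1237 CPM. Of 79 mitoribosome protein genes none was higher and 2 were lower, Mrpl3 (−0.46 ± 0.14, adjusted p = 0.0200) and Mrpl23 (−0.66 ± 0.23, 0.0488). Of 7 regulators of mitochondrial biogenesis 1 was called, the coactivator Ppargc1a. It had 0 to 0.344 CPM in WT DMSO and 3.30 to 8.37 CPM in KO DMSO. With rimeporide it had 0.238 to 1.19 CPM in WT and 3.18 to 3.88 CPM in KO. It was also called there (2.39 ± 0.49, edgeR adjusted p = 0.00193). Its WT values were near the floor, and it passed the filter on low counts only through the KO libraries, where it is high. The part of other cell types in its level was not tested.

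With rimeporide in KO, 15 of the 82 respiratory chain subunit genes were higher and 3 lower, with a median of 0.075 against −0.0081 over all genes, where 8.43% and 6.35% of all genes were called. Ndufs1, a complex I subunit with iron-sulfur clusters (0.41 ± 0.08, edgeR adjusted p = 0.00466), and Atp5b, the catalytic subunit of complex V (0.44 ± 0.09, 0.00520), rose, and Ndufb3 fell (−0.78 ± 0.16, 0.00396). Ndufb3 had 348, 149.9, 254 and 288 CPM in KO DMSO and 146 to 155 CPM in KO rimeporide, so KO DMSO replicate 2 lay within the rimeporide range. Of the mitoribosome genes 7 were higher and 1 lower, among them Mrps5 (0.63 ± 0.14, adjusted p = 0.00585), Mrps17 (0.48 ± 0.12, 0.0112) and Mrpl3 (0.47 ± 0.14, 0.0228). Of the genes of RNA processing 1 was higher and 2 were lower. Gtpbp3, a modifier of mitochondrial transfer RNAs, rose (0.81 ± 0.18, adjusted p = 0.00585), and Lrpprc (−1.07 ± 0.18, 0.00285) and Ddx28, a helicase of mitoribosome assembly (−0.45 ± 0.15, 0.0415), fell. Lrpprc had 172 CPM in KO DMSO replicate 2, 352 to 456 CPM in the other KO DMSO libraries and 147 to 166 CPM in KO rimeporide. Of the synthetase list Lars2 (0.97 ± 0.32, adjusted p = 0.0441) and Tars2 (0.87 ± 0.29, 0.0432) rose, and of the replication list Ssbp1 (−0.39 ± 0.12, 0.0318) and Mgme1, an exonuclease (−0.54 ± 0.15, 0.0205), fell. Lars2 in KO DMSO replicate 2, at 47.3 CPM, lay above all KO rimeporide libraries, at 33.3 to 45.5 CPM, and replicates 1, 3 and 4 lay below them.

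Between genotypes in rimeporide, 1 of 39 tested genes of RNA processing and 1 of 79 of the mitoribosome were called besides Ppargc1a. In this comparison 5.14% of all genes were called higher and 2.32% lower. Pde12, which removes poly(A) from mitochondrial RNA, was lower in KO (−0.49 ± 0.13, edgeR adjusted p = 0.0229), and Mrpl36 was higher (0.39 ± 0.12, 0.0448). None of the 82 respiratory chain subunit genes was called there. With rimeporide in WT, no gene of these lists passed.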

How the data were processed

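The authors deposited expected counts per gene. The submitters' processing notes name Salmon and GRCm39, and the sources used here do not give versions, annotation release, use of strand or removal of duplicates. They also deposited log2 CPM values, used only as a check: per library, their correlation was 0.99987 or more with edgeR's scaled log2 CPM (prior count 2) and 0.998 or more with unscaled log2 CPM. Fractional counts (13.7% of values) were rounded for the tests.

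CPM is 1000000 times a gene's count over the library total and is given with the SD over 4 libraries. Tests used edgeR 4.0.16 in R 4.3.3: filterByExpr (minimum count 10, minimum total 15), TMM scaling, and 1 quasi-likelihood fit with a mean per group over all 16 libraries, which left 12272 genes. A standard error is |log2 fold change| divided by the root of F. There were 5 comparisons, each adjusted by the Benjamini-Hochberg method over all genes tested. The script was tested on simulated data. DESeq2 1.42.0, another scaling, other filters, a replicate block and leaving out each library were alternatives.

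Order, strand, sequences and copies came from GENCODE M21 (GRCm38) by Ensembl identifier, with BLAST+ 2.17.0 for the copies (identity of at least 90%, at least 150 aligned bases). That build differs from the authors', so no coordinates are given. Every symbol that begins with mt- was accounted for, tested members were named, and of each pathway list up to 3 called members with the smallest p were named. The members and lists were chosen with earlier results of these data known. Markers: microglia, neuron, astrocyte, oligodendrocyte lineage, and fibroblast, endothelial and mural cells.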

Additional observations from a re-analysis of the deposited data

Results flagged for a closer look

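In 5 of 80 gene and group pairs, 1 library lay far from the other 3 of its group by Dixon's criterion, where chance gives about 1 in 20, or 4. In KO rimeporide, replicate 4 stood at 915 CPM for mt-Co2 against 772 to 791 in the others, and at 54.1 CPM for mt-Atp8 against 41.1 to 43.1. Replicate 1 of that group stood at 862 CPM for mt-Atp6 against 915 to 919, and replicate 3 at 51.0 CPM for mt-Nd4l against 68.7 to 71.4. In KO DMSO, replicate 4 stood at 7.21 CPM for mt-Nd6 against 4.97 to 5.26. KO DMSO replicate 2, on which many calls turned, met the criterion for none of the 20 genes.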

How the results depend on the processing

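Another scaling (DESeq2 size factors, or scaling without the mitochondrial genes), a filter of at least 1 CPM in 4 libraries and the added nuclear copies left every count of called members as it was. Each of the 11 calls also held with DESeq2, without a filter and with the replicate block. These 3 settings changed counts by adding calls. Without a filter, KO against WT gave 5 higher in DMSO and 1 higher and 3 lower in rimeporide, rimeporide in WT gave 1 higher, and the interaction gave 4 lower. With the replicate block, 5 were higher in KO against WT in DMSO, 1 in rimeporide, 1 with rimeporide in WT and 4 with rimeporide in KO, and 2 were lower in the interaction. The block added mt-Nd3 in KO against WT in DMSO (adjusted p = 0.00201) and in rimeporide (0.000261) and with rimeporide in WT (0.0226). DESeq2 gave 1 lower in the interaction and 3 higher with rimeporide in KO, where it added mt-Tw (0.0438). Calls over all genes in the interaction were 2 in the main test, 276 with DESeq2, 630 without a filter and 695 with the replicate block; for rimeporide in WT they were 0, 6, 95 and 6. Same-numbered libraries deviated together by a correlation of −0.0044 to 0.212, not over 0.1 in every pair. In most of these pairs, but not all, a library correlated best with its own number. The replicate block raised calls over all genes from 2287 to 2934 for KO against WT in DMSO. For rimeporide in KO it raised them from 1813 to 2411. The labels do not tie a DMSO library to a rimeporide library, so the main fit did not take the numbers as pairs. Whether the numbers mark shared cultures was not tested.

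Leaving out 1 library gave 0 to 6 higher and 0 to 3 lower members for KO against WT in DMSO, 0 to 1 and 0 to 2 in rimeporide, 0 to 4 and 0 to 4 for rimeporide in KO, 0 and 0 in WT, and 0 to 1 and 0 to 7 in the interaction. The mitochondrial share then ran from 2.38% to 2.48% in WT DMSO, 2.30% to 2.46% in KO DMSO, 2.64% to 2.76% in WT rimeporide and 2.30% to 2.45% in KO rimeporide. With the ribosomal RNA genes left out of the share and the total, the mean share was 0.966%, 1.10%, 1.09% and 1.03% in these groups. The lower level follows by construction, but the order of the groups does not. KO DMSO had the lowest mean with these genes and the highest without them, and overlapped WT DMSO in both. Without them every WT rimeporide library, at 1.05% to 1.13%, lay above every WT DMSO library, at 0.867% to 1.01%. No value of a called member changed sign under any alternative. Transfer RNAs and mt-Nd6 are limited by depth, at under 10 CPM in every library for each tested one but mt-Tg.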

Other observations

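Of the nuclear sequences that resemble mitochondrial genes less closely, 9 were found, and 3 of them on chromosome 2, Gm13339, Gm13340 and Gm13341, stood at 52.0 to 242 CPM. With rimeporide in KO, Gm13341, which resembles mt-Co2, rose by 0.59 ± 0.14 (edgeR adjusted p = 0.00950) and Gm13340, which resembles mt-Co1, by 0.57 ± 0.18 (0.0409), while mt-Co2 (−0.03 ± 0.09, 0.863) and mt-Co1 (−0.13 ± 0.10, 0.390) did not pass. Gm4076, which resembles mt-Nd5, was lower in KO than in WT in DMSO (−0.94 ± 0.31, adjusted p = 0.0389).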
